A study of Mus musculus with 28 samples.

Results

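The comparison described here set CD8 T cells that were stimulated for 2 days in culture and then kept with antigen in their hosts for 3 days against CD8 T cells that had the same 2 days of stimulation and then rested without antigen. It used 6 of the 28 arrays of the series, chosen by sample title: 3 arrays of CD8 cells with continuous stimulation and 3 of CD8 cells with transient stimulation. All 12393 genes that the arrays measure through a probe set with 1 gene symbol were tested.

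CD8 T cells that recognise antigen through their receptor leave rest, divide and build the machinery of killing, which consists of granzymes and perforin in granules, Fas ligand, and cytokines and chemokines such as interferon gamma. Transcription factors of the NFAT, AP-1, Egr and Nr4a families carry the receptor's signal to the nucleus, and the same signal also induces its own brakes, among them inhibitory receptors such as PD-1 and Tim-3. When antigen is gone, factors of the resting state such as Klf2 and Foxo1 return with their targets, which include the interleukin 7 receptor and the receptors that guide cells through lymph nodes.

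All cells were CD8+ lymphocytes with the OT1 T cell receptor transgene, on a C57BL/6N background. In the continuous group, cells were cultured for 2 days with interleukin 7 at 5 ng/ml on plates coated with anti-CD3 and anti-CD28 antibodies at 10 µg/ml, and were then transferred for 3 days into hosts that express the antigen (named dtg-O or -M in the labels). The transient group had the same 2 days of culture, followed by 3 days in antigen-free hosts. Another 3 arrays, used here for levels only, held unstimulated CD8 cells from uncoated plates that also spent 3 days in antigen-free hosts. The matching CD4 cells carried the AND receptor and gave 3 continuous and 2 transient arrays. Cells were sorted repeatedly to near purity from spleen and subcutaneous lymph nodes, as the series text has it, and the replicates are described there as independent biological ones. Age and sex are not given in the sources used here. Because only the continuous group's hosts carried the antigen, the antigen and any other difference between the hosts cannot be told apart, and every CD8 cell had 1 and the same receptor.

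Levels are given as log2 values from the RMA method, in which 1 unit is a doubling of the probe signal. A gene was called changed at a Benjamini-Hochberg adjusted p under 0.05 in a limma fit of the 16 day 5 arrays, adjusted over all 12393 genes. Standard errors and intervals of that fit draw on the spread within all day 5 groups, CD4 and unstimulated ones included. They can therefore differ from the spread of the 6 CD8 arrays compared. For Gzmb the standard deviation was 1.91 in continuous and 0.67 in transient cells, and the standard error was 0.69. A fit of the 6 CD8 arrays alone kept 2924 of the 3376 calls described below. In bulk arrays of this kind, fewer cells of a type and less RNA per cell cannot be told apart.

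The arrays of the continuous group were not alike. Correlation over all genes was 0.984 to 0.994 within the continuous group and 0.989 to 0.994 within the transient group. Continuous array 3 lay nearer to the transient arrays, at 0.974 to 0.978, than continuous arrays 1 and 2 did, at 0.955 to 0.963. The defining CD8 markers gave summed log2 signals of 13.27 to 13.41 in the continuous group, 13.75 to 13.89 in the transient group and 7.27 to 7.49 in the CD4 arrays, so the cells matched their label. Summed markers of other cells varied within groups: B cell markers reached 9.95 to 12.63 in the continuous and 9.78 to 11.75 in the transient group, with continuous array 3 the highest, and myeloid markers reached 9.48 to 11.33 and 8.99 to 12.40, with transient array 1 the highest. None of the 12 B cell, 12 myeloid, 6 natural killer cell, 5 platelet or 4 sex-linked markers measured was called. A fit that held the mean of the myeloid markers constant called 1740 genes higher and 1800 lower in continuous cells. It kept 3340 of the 3376 calls described below. Beyond that fit, the part of such cells in the results was not tested. Of the lists for T cells themselves, 1 of 3 CD8, 1 of 3 CD4 helper and 3 of 6 pan T cell markers fell and none rose. Of 6 regulatory T cell markers 2 rose and 1 fell. In addition, 1 of 5 plasma cell markers (Irf4, which activated T cells also express) and 1 of 4 red cell markers rose. Over all genes 13.6% were called each way, and with so few genes a list these counts are not read as a result. The summed signal of the sex-linked genes put transient array 3 apart at 9.83, against 12.92 to 13.43 in the continuous arrays and 13.36 to 13.37 in the other transient arrays. Their median relative to the transient mean went the other way. It was 1.8 on transient array 3 and -1.23 to -0.86 on the continuous and other transient arrays. The list was written with Xist and Y chromosome genes, which differ by sex in opposite directions. Whether the sex of the cells differed was not tested. The difference between the 3′ and 5′ probe sets of beta-actin, which grows as RNA is shortened, was 0.31 to 0.56 in the continuous group and 0.66 to 1.02 in the transient group, and the groups did not overlap. In a fit that held it constant, 1160 genes were called higher (9.36%) and 1088 lower (8.78%) in continuous cells, together 18.1%, and 2101 of the 3376 calls described next were kept. Genes named below that lost their call in that fit include 10 with adjusted p = 0.0504 to 0.175: Ccl3, Ccl5, Cd24a, Cd3d, Cxcr6, Havcr2, Id3, Lag3, Ndrg1 and Prdm1. The falls of Egr3, Ier5 and Slc2a1 were not called in that fit either.

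A large share of the genes measured differed between continuous and transient cells. Of 12393 genes, 1686 were called higher in continuous cells (13.6%) and 1690 were called lower (13.6%), so that 27.2% were called either way. The called rises were larger: 642 genes rose by at least 1 log2 unit (5.18%) and 446 fell by as much (3.6%), so 8.78% moved that far, and 170 rose but 35 fell by 2 units or more. All 3 continuous arrays lay above all 3 transient ones for 2272 genes (18.3%) and below them for 2882 (23.3%). The median difference over all genes was -0.05 log2 units and the median standard error was 0.148. Without continuous array 3, 1819 genes were called higher (14.7%) and 1812 lower (14.6%), together 29.3%. With arrays centred on their medians 1537 were called higher (12.4%) and 1929 lower (15.6%), together 28%, and a fit of all 28 arrays called 246 higher and 114 lower. In each continuous array the shift had the same directions, with the median of the called-higher genes 0.65 to 0.97 above the transient mean and that of the called-lower genes at -0.86 to -0.55, and array 3 had the smallest shift in both directions. These genes were chosen by the fit of the same arrays, so their shared direction is no separate evidence.

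**Figure D1:**
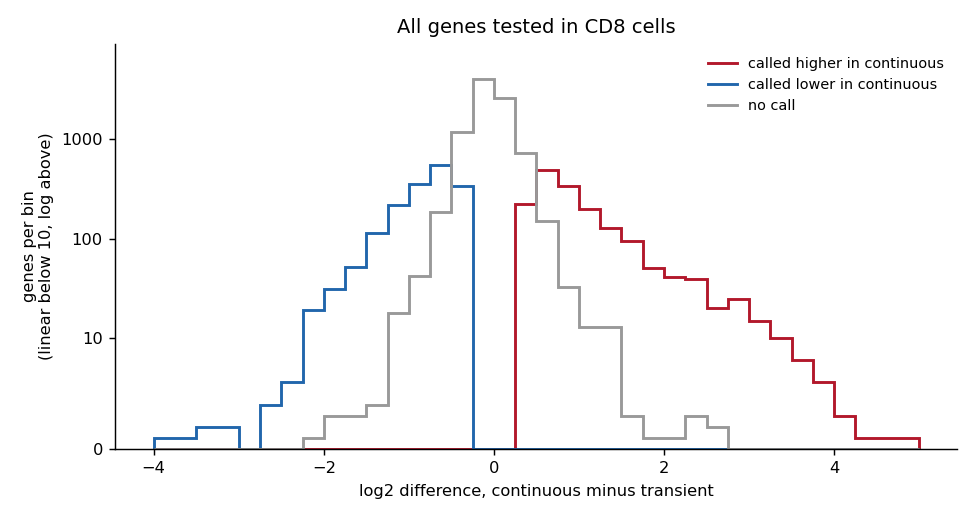
Number of genes (vertical axis, linear below 10 and logarithmic above) by log2 difference, continuous minus transient (horizontal axis, bins of 0.25), for genes called higher, called lower and not called in CD8 cells. The called rises reach 4.88 and the called falls -3.80, and the tail of rises holds more genes than that of falls.

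Genes of killing and of inflammatory signalling held the largest rises. Of 20 measured cytotoxic genes, 7 rose and 1 fell (35.0% and 5.0%, against 13.6% each over all genes), with a median difference of 0.28, and 5 rose and 1 fell with the beta-actin difference held constant. Gzmk, granzyme K, a serine protease of cytotoxic granules, was at 12.67, 12.63 and 10.46 in continuous cells and at 6.59, 6.98 and 7.56 in transient cells. It had the largest called rise of all genes, 4.88 ± 0.46 log2 units (SE) or 29.4-fold (adjusted p = 1.88e-05). All 3 continuous arrays lay above all transient ones, and array 3 was the lowest of them. Gzmb, granzyme B, which enters target cells and starts their apoptosis, was at 13.10, 13.35 and 9.92 in continuous cells against 7.71, 7.51 and 8.76 in transient cells (log2 difference 4.13 ± 0.69, 17.5-fold, adjusted p = 0.00063). Its continuous arrays 1 and 2 were alike, and array 3 was over 3 units below them and over 1 unit above the highest transient array. Without array 3 the difference was 5.23 (adjusted p = 2.21e-06).

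Fasl, Fas ligand, which kills through a death receptor, rose 12.5-fold, with 8.92, 9.28 and 7.28 in continuous cells and 4.60, 4.49 and 5.45 in transient cells (adjusted p = 0.000178). Serpinb9, an inhibitor that shields the killer cell from its own granzyme B, rose 3.45-fold (adjusted p = 0.00184), and its continuous array 3, at 8.96, was again the lowest of its group. Gzma and Prf1 were not called over all arrays. Gzma, granzyme A, was at 12.78, 13.21 and 8.33 in continuous cells and 9.41, 9.45 and 11.59 in transient cells, so the groups overlapped, and its 95% interval of -1.13 to 3.71 log2 units holds both a fall and a rise of over 2-fold. Without continuous array 3 its difference was 2.84 (adjusted p = 0.0232). Prf1, the pore-forming perforin, had 9.06, 10.19 and 7.98 in continuous cells against 8.42, 8.12 and 8.64 in transient cells, a difference of 0.68 (adjusted p = 0.231) that was called at 1.23 without continuous array 3 (adjusted p = 0.00565). Its other probe set was called in the opposite direction, so the arrays do not settle this gene. Over the whole list, 10 genes rose and 1 fell without array 3.

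Cytokine and chemokine genes had 7 rises and 2 falls among 22 measured (31.8% and 9.09%, against 13.6% each way over all genes), with a median of 0.11, and 4 rises and no fall with the beta-actin difference held constant. Ifng, interferon gamma, was at 9.65, 12.13 and 10.24 in continuous cells and 5.76, 7.13 and 5.58 in transient cells, a rise of 4.52 ± 0.62 or 22.9-fold (adjusted p = 0.000161). Ccl4, an inflammatory chemokine, was at 9.43, 12.17 and 11.02 in continuous cells against 6.64, 6.79 and 7.10 in transient cells, and Xcl1, which draws cross-presenting dendritic cells, was at 9.26, 10.75 and 10.39 against 6.53, 6.11 and 7.02. In these 3 genes the groups were far apart and continuous array 1 was the lowest of its group, whereas in Gzmk, Gzmb and Gzma it was array 3, by more than 2 units. Ccl3, a chemokine that draws monocytes and T cells, averaged 9.55 in continuous cells (standard deviation 1.13) and 5.55 in transient cells (0.11). Its difference of 4.00 had a wide 95% interval of 1.02 to 6.98 (adjusted p = 0.0458) in the fit, which also draws on the spread of the other day 5 groups. Leaving out any of the 6 arrays ended its call, with adjusted p of 0.0634 to 0.157. Ccl5, a chemokine of effector and memory CD8 cells, went the other way: it was at 10.76, 11.97 and 11.34 in continuous cells and 12.41, 12.86 and 12.37 in transient cells (difference -1.19 ± 0.39, adjusted p = 0.0343). That call was lost without any of 5 of the 6 arrays (adjusted p up to 0.16).

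Genes that report signalling through the antigen receptor rose in part. Of 22 measured early genes of that signal, 9 rose and 2 fell (40.9% and 9.09%, against 13.6% each way over all genes), with a median difference of 0.93. With the beta-actin difference held constant, 9 rose and none fell. Tnfrsf9, which encodes the costimulatory receptor 4-1BB, had the smallest adjusted p of the named genes of this list: 10.89, 11.84 and 11.59 in continuous cells against 7.83, 7.80 and 8.26 in transient cells (difference 3.47 ± 0.23, 11.1-fold, adjusted p = 3.03e-06). Nr4a1, the nuclear receptor Nur77, was at 8.90, 10.62 and 10.14 in continuous cells and at 7.36, 6.70 and 7.39 in transient cells, and rose 6.68-fold (adjusted p = 0.000615). Egr2, a zinc finger factor of the same pathway, rose 4.80-fold (adjusted p = 0.000974). For both genes continuous array 1, not array 3, was the lowest of its group. The 2 falls were those of Egr3 (difference -0.35, adjusted p = 0.049) and Ier5 (difference -0.63, adjusted p = 0.0286). The call of Egr3 was lost without any of 5 of the 6 arrays (adjusted p up to 0.15).

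Irf4 and Irf8, interferon regulatory factors that receptor signalling induces, rose 5.19-fold and 7.23-fold (adjusted p = 0.00465 and 0.00116). Nr4a2, a close relative of Nr4a1, rose 2.09-fold, at 6.63, 7.62 and 7.43 in continuous cells and 6.14, 6.05 and 6.28 in transient cells. Their relative Nr4a3 was near 6 on every array, with 5.84, 5.79 and 5.87 in continuous cells against 6.00, 6.27 and 5.75 in transient cells, and was not called (95% interval -0.47 to 0.13). Egr1 was high in both groups, at 10.68, 12.15 and 11.85 against 11.19, 11.21 and 11.34, and was not called, with an interval of -0.51 to 1.14. Myc, which drives growth, was at 9.11, 10.62 and 10.60 in continuous cells and at 9.23, 9.13 and 9.17 in transient cells: array 1 sat among the transient arrays while the others stood above them, and the gene was not called (difference 0.93, interval -0.15 to 2.01). Fosb, an AP-1 subunit, spread over 6.30, 8.57 and 10.83 in continuous cells against 4.73, 5.23 and 5.13 in transient cells (difference 3.54 ± 1.10, adjusted p = 0.0272). It was highest in continuous array 3, and its call was lost on leaving out any of 5 arrays, with a difference of 2.41 and adjusted p = 0.11 without array 3.

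Feedback inhibitors of signalling had 5 rises and 3 falls among 20 measured (25.0% and 15.0%, against 13.6% each way over all genes), so that the share of falls was near that of all genes. There were 4 rises and 5 falls without continuous array 3, and 5 and 2 with the beta-actin difference held constant. Rgs16, which quenches G protein signals of chemokine receptors, was at 8.24, 10.18 and 9.86 in continuous cells and 5.66, 7.01 and 5.62 in transient cells (10.0-fold, adjusted p = 0.00229). Spry1, a Sprouty inhibitor of Ras signalling, rose 4.37-fold, and Dusp14, a phosphatase, rose 3.18-fold. Socs3, the brake on interleukin 6 family signals, fell: it was at 6.78, 7.74 and 7.82 in continuous cells, 9.46, 10.17 and 9.10 in transient cells and averaged 11.57 in unstimulated cells. The groups did not overlap and the fall was 4.37-fold (adjusted p = 0.00105). Among 14 genes listed as brakes linked to anergy, 1 rose and 4 fell (7.14% and 28.6%, against 13.6% each way), and none rose and 3 fell with the beta-actin difference held constant. Ndrg1 rose 2.37-fold, while Dgka, a diacylglycerol kinase that opposes receptor signalling, fell 1.78-fold and the adaptor Pag1 fell 2.07-fold (adjusted p = 0.00261 and 0.00015).

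Inhibitory receptors and genes used as marks of exhausted cells rose in 5 of 12 measured cases and fell in none (41.7% against 13.6% over all genes), with a median of 0.42. The rises were 4 without continuous array 3 and 3 with the beta-actin difference held constant. Pdcd1, which encodes PD-1, was at 9.46, 9.92 and 8.38 in continuous cells and 6.72, 6.65 and 6.79 in transient cells (difference 2.53 ± 0.41, 5.78-fold, adjusted p = 0.000558). Havcr2, which encodes Tim-3, was at 9.58, 9.08 and 5.69 in continuous cells and 4.53, 4.19 and 4.75 in transient cells. Both continuous arrays 1 and 2 were over 4 units above the transient arrays, whereas array 3 exceeded them by about 1. The difference was 3.63 ± 0.88 over all arrays (adjusted p = 0.00709) and 4.84 without array 3 (adjusted p = 0.000147), and it was not called with the beta-actin difference held constant. Cd200, whose product signals to an inhibitory receptor on other cells, rose 3.96-fold (adjusted p = 0.000178). Lag3, an inhibitory receptor for class II molecules, was at 7.78, 7.40 and 8.21 in continuous cells against 6.83, 7.04 and 7.03 in transient cells and passed narrowly (difference 0.83, adjusted p = 0.046). Its call was lost without any of 5 arrays (adjusted p up to 0.16).

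Ctla4 and Tox were not called. Ctla4, the competitor of CD28, was at 9.70, 10.49 and 11.16 in continuous cells and 10.76, 10.31 and 10.68 in transient cells, in both cases far above its mean of 6.65 in unstimulated cells, with a 95% interval of the difference of -0.81 to 0.54. Tox, a factor of the exhausted state, was at 6.55, 7.05 and 6.80 against 6.48, 6.64 and 6.70, with an interval of -0.22 to 0.61. In both genes the groups overlapped.

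Among 21 transcription factors of effector and memory cells, 4 rose and 3 fell (19.0% and 14.3%, near the 13.6% each way over all genes), with a median of -0.09. Without continuous array 3, 5 fell, and with the beta-actin difference held constant 2 rose and 1 fell. Of the T-box pair, Eomes rose and Tbx21 was not called. Eomes was at 10.61, 11.19 and 11.59 in continuous cells, at 8.76, 9.23 and 9.16 in transient cells, and averaged 11.21 in unstimulated cells (continuous minus transient 2.08 ± 0.28, 4.23-fold, adjusted p = 0.000158). Tbx21, which encodes T-bet, was at 11.43, 11.96 and 10.11 in continuous cells and 11.02, 11.02 and 10.82 in transient cells, so the groups overlapped, and both stood above the unstimulated mean of 7.93. It was not called (difference 0.21, interval -0.55 to 0.98), but was called at 0.74 without continuous array 3 (adjusted p = 0.0323). Bhlhe40, a repressor that receptor signalling induces, rose 6.42-fold, at 9.25, 9.80 and 9.25 in continuous cells and 6.59, 6.78 and 6.89 in transient cells (adjusted p = 0.000412).

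Prdm1, which encodes Blimp-1, a factor of terminal effector cells, was at 8.16, 7.63 and 5.52 in continuous cells and 5.33, 5.10 and 5.67 in transient cells. The gene was raised on continuous arrays 1 and 2 only, and the groups overlapped. It was called at 1.74 (adjusted p = 0.0403), at 2.53 without continuous array 3 (adjusted p = 0.00101), and not without any of the other 5 arrays (adjusted p up to 0.19). Id3, a factor of memory precursors, was at 9.14, 9.77 and 10.57 in continuous cells and 10.94, 11.01 and 10.97 in transient cells (difference -1.15 ± 0.30, adjusted p = 0.0108), and its adjusted p was 0.0552 without continuous array 1. Klrg1, a surface mark of short-lived effector cells, varied within both groups, at 7.55, 7.35 and 6.14 against 6.69, 5.75 and 8.97, and its interval of -1.78 to 1.54 leaves its direction unsettled.

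**Figure D2:**
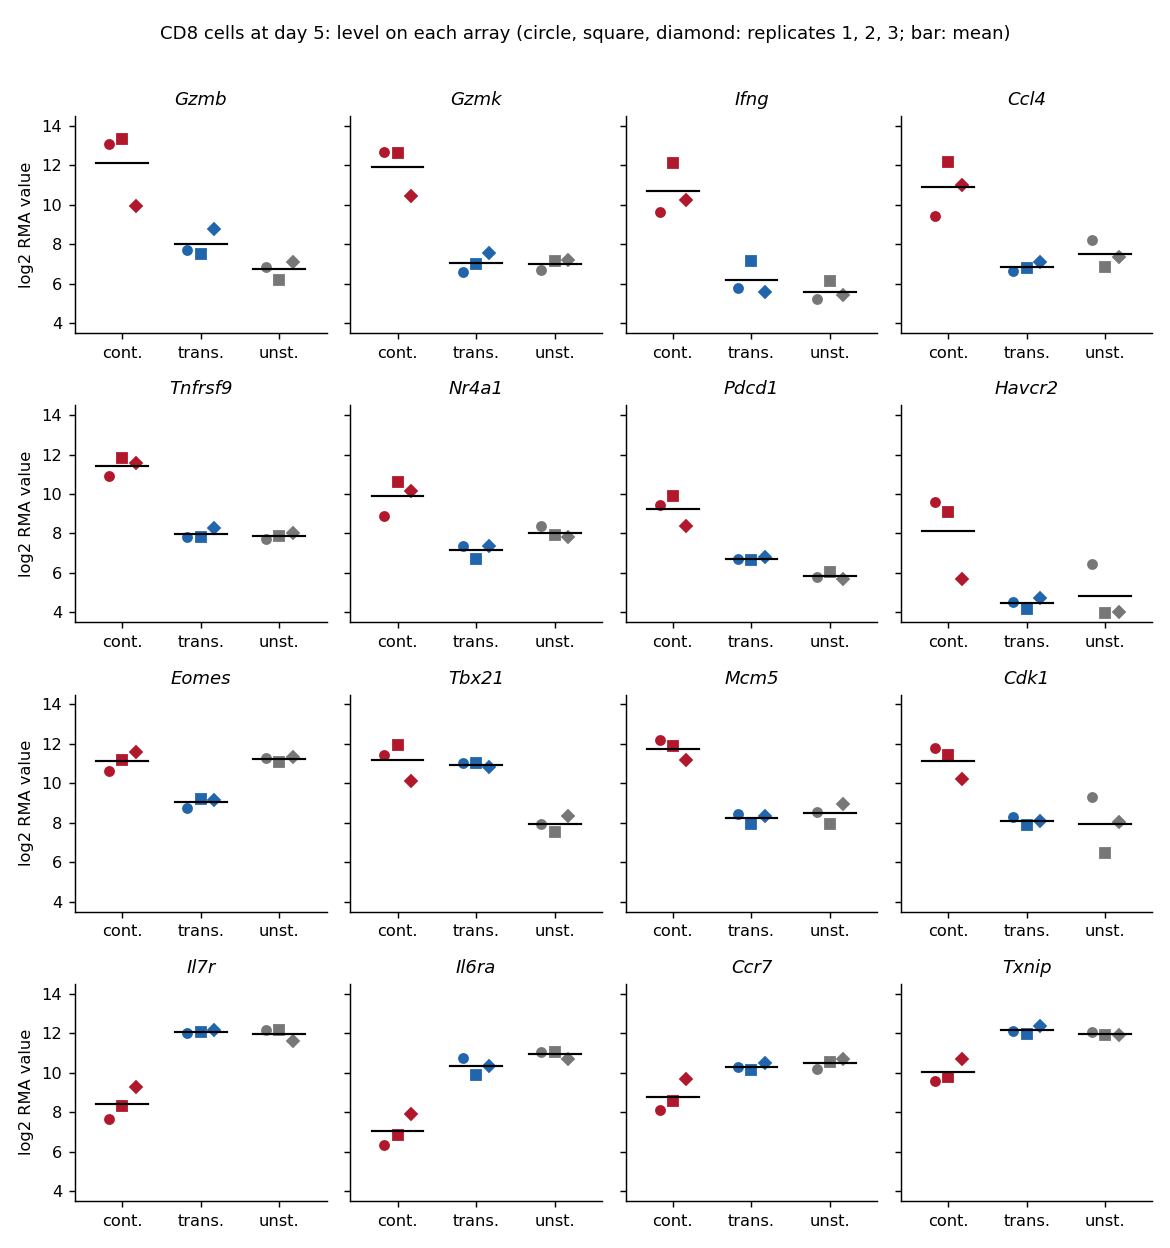
Level of 16 genes (vertical axis, log2 RMA value, the same scale in each panel) on each CD8 array at day 5, by group: continuous, transient and unstimulated. Symbols stand for replicates 1 to 3 and bars for group means; for Gzmb, Havcr2 and Tbx21 the continuous replicate 3 lies apart from replicates 1 and 2, and for Il7r all continuous arrays, at 7.64 to 9.26, lie below all transient arrays, at 11.99 to 12.15.

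Genes of rest and lymph node homing were the list with the largest share of falls. Of 20 measured, 16 fell and none rose (80.0% against 13.6% over all genes), with a median difference of -1.12, 18 fell without continuous array 3, and 14 fell with the beta-actin difference held constant. Il7r, the receptor for the survival cytokine interleukin 7, was at 7.64, 8.33 and 9.26 in continuous cells, at 11.99, 12.07 and 12.15 in transient cells, and averaged 11.97 in unstimulated cells. It fell by 3.66 log2 units (12.6-fold, adjusted p = 0.00146), and all continuous arrays lay below all transient ones. Ccr7, the receptor that draws cells into lymph nodes, was at 8.11, 8.56 and 9.70 in continuous cells and 10.29, 10.11 and 10.50 in transient cells (difference -1.51 ± 0.29, adjusted p = 0.00168). S1pr1, through which lymphocytes leave lymph nodes, was at 8.92, 8.39 and 8.68 in continuous cells and at 10.14, 9.82 and 10.28 in transient cells, with an unstimulated mean of 8.72 near the continuous level. Klf2, the factor that keeps S1pr1 on, fell less, by 0.65 ± 0.18 (adjusted p = 0.0165), and its call was lost without continuous array 2 (adjusted p = 0.0879).

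Txnip, which restrains glucose uptake, was at 9.57, 9.80 and 10.69 in continuous cells and 12.13, 11.96 and 12.35 in transient cells and fell 4.36-fold (adjusted p = 3.91e-05). Btg1, an antiproliferative gene, fell 2.78-fold, with a spread in continuous cells of 10.77, 11.55 and 12.45 against 13.15, 12.94 and 13.11 in transient cells. For Il7r, Ccr7, Txnip and Btg1 the order of the continuous arrays was the same: array 1 was the lowest and array 3 the nearest to the transient level.

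Cytokine receptors fell more often than they rose, with 7 falls and 2 rises among 21 measured and a median of -0.10. The shares were 33.3% and 9.52%, against 13.6% each way over all genes. Without continuous array 3 there were 8 falls and 5 rises, and with the beta-actin difference held constant 6 falls and 1 rise. Il6ra, the receptor chain that binds interleukin 6, was at 6.35, 6.82 and 7.89 in continuous cells and 10.75, 9.90 and 10.32 in transient cells, a fall of 3.30 log2 units (9.87-fold, adjusted p = 2.56e-05). Its signalling partner gp130, encoded by Il6st, fell 3.63-fold, and Tgfbr2, a receptor chain for TGF beta, fell 2.91-fold (adjusted p = 0.00186 and 0.000306). Il2ra, whose product gives cells a tight grip on interleukin 2, rose instead: 7.45, 7.87 and 6.89 in continuous cells against 5.14, 5.05 and 5.41 in transient cells (4.58-fold, adjusted p = 0.000991). The groups were separate for each of these 4 receptor chains, all of them called. Over all genes, 18.3% were separate with continuous cells higher and 23.3% with continuous cells lower. Of the called genes, 1645 of the 1686 higher and 1622 of the 1690 lower were separate, so this is no separate evidence.

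TNF superfamily genes had 6 rises and 5 falls among 19 (31.6% and 26.3%, against 13.6% each way over all genes), but 2 rises and 1 fall with the beta-actin difference held constant. Tnfsf11, which encodes the ligand RANKL, rose 5.16-fold, Tnfsf9, the ligand of 4-1BB, rose 3.36-fold, and Tnfrsf25, a death-domain receptor of resting T cells, fell 4.74-fold (adjusted p = 0.000887, 0.000211 and 0.00063). Among 21 chemokine receptors, integrins and adhesion molecules, 2 rose and 6 fell (9.52% and 28.6%, against the same 13.6% each way). With the beta-actin difference held constant, 1 rose and 4 fell. Cxcr4, the receptor for CXCL12, was at 8.94, 9.30 and 9.51 in continuous cells and 6.77, 7.38 and 6.38 in transient cells (5.30-fold, adjusted p = 0.000122). Itgae, the CD103 integrin chain that binds epithelial E-cadherin, was at 6.16, 6.20 and 6.86 in continuous cells and 9.42, 8.62 and 9.18 in transient cells, and fell 6.35-fold (adjusted p = 2.87e-05). Cxcr6, a receptor of tissue-resident cells, fell 2.61-fold. Cd44, an adhesion molecule of activated cells, was at 10.80, 11.27 and 11.07 against 10.91, 10.29 and 11.03 and was not called, with an interval of -0.59 to 1.2.

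Genes of cell division made up the lists with the largest share of rises. All 25 measured genes of DNA replication and nucleotide supply were called higher in continuous cells, with differences from 0.75 to 3.78 and a median of 2.04, and so were all 26 measured genes of mitosis, from 0.80 to 3.19 with a median of 2.53, against 13.6% over all genes. With arrays centred on their medians, 24 of the 25 and all 26 were called, and with the beta-actin difference held constant, 24 of the 25 and 24 of the 26. Relative to the transient mean, the median of the replication list was at 2.43, 2.14 and 1.83 on the 3 continuous arrays, and that of the mitosis list at 3.05, 2.56 and 1.92, while on the transient arrays the medians stayed between -0.19 and 0.27. Array 3 was the lowest continuous array in both lists, and still far above the transient arrays.

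Cdc6, which loads the replicative helicase onto origins, was at 10.92, 10.75 and 10.04 in continuous cells against 7.09, 6.49 and 6.78 in transient cells (13.8-fold, adjusted p = 0.000146). Mcm5, a subunit of that helicase, was at 12.18, 11.89 and 11.18 against 8.43, 7.93 and 8.36 (11.4-fold, adjusted p = 9.63e-06). Ttk, a kinase of the spindle checkpoint, was at 9.48, 8.97 and 8.53 against 6.19, 5.23 and 5.97 (9.13-fold, adjusted p = 0.000127). Cdk1, the kinase that drives entry into mitosis, was at 11.79, 11.45 and 10.22 against 8.28, 7.87 and 8.07 (8.46-fold, adjusted p = 0.0017). In each of these 4 genes the lowest continuous array was more than 1 log2 unit above the highest transient array. Mki67, the Ki-67 antigen, was at 12.31, 11.81 and 11.76 against 10.21, 9.51 and 9.70, above an unstimulated mean of 8.49 in both groups.

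Because these lists moved together, their promoters were searched for short motifs on both strands, in RefSeq windows of 300 bases around each start site (build GRCm38.p6); a gene with several windows counted once if any held the motif, and bases are counted from the window's 5′ end. E2F factors bind TTTGGCGC and the core TTCCCGC in replication genes. Of the 23 replication genes with a window, 5 held TTTGGCGC (21.7%), against 0.585% of all 27025 genes with a window, and 11 held TTCCCGC (47.8%, against 5.29%). Among the 9887 measured genes with a window the shares were 0.981% and 8.46%. Of the 21 mitosis genes with a window, 16 held TTTGAA, the cell cycle homology region bound by the DREAM and MuvB complexes (76.2%, against 20.2%), and 18 held CCAAT, the box of the factor NF-Y (85.7%, against 41.1%). Among measured genes with a window, 15.4% held TTTGAA and 42.3% held CCAAT. The CCAAT box was about as common in some lists with no tie to division, at 94.1% in the unfolded protein response, 88.2% in sterol synthesis and 76.5% in the quiescence genes. None of the 21 held either E2F motif, and 3 of the 23 replication genes held TTTGAA. The E2F core, the cell cycle homology region and the CCAAT box were chosen after the windows had been seen, and a match describes letters, not binding.

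The windows below are those of the genes with the largest rises among genes that have a single window with a match. Genes on a chromosome that was left out of this choice were passed over. Capitals mark the matched motif on either strand. The first 3 belong to the replication genes Cdc6 (chr11:98907901-98908200, plus strand, core at base 113), Mcm5 (chr8:75109259-75109558, plus strand, TTTGGCGC on the reverse strand at base 102) and Rfc4, a subunit of the clamp loader (chr16:23127681-23127980, minus strand, core at base 262). The next 2 belong to the mitosis genes Ttk (chr9:83834439-83834738, plus strand) and Cdk1 (chr10:69352863-69353162, minus strand), with TTTGAA and CCAAT in capitals.
Cdc6: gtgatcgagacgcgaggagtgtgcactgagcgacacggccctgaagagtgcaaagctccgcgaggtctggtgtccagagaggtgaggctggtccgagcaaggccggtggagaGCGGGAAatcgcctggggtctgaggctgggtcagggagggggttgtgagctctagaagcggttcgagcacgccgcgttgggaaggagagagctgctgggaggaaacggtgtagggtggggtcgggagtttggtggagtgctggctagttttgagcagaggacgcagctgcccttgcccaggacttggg
Mcm5: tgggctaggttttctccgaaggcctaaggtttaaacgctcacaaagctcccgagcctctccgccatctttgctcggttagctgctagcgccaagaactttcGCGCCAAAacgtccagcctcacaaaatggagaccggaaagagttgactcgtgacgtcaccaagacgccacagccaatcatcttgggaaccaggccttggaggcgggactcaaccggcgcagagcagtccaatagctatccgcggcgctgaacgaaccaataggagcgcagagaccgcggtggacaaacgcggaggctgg
Rfc4: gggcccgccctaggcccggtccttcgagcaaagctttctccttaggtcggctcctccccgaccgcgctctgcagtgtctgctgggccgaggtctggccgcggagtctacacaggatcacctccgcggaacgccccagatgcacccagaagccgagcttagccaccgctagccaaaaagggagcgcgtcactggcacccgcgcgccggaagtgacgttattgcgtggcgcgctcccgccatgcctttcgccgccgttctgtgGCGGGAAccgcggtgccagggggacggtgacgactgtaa
Ttk: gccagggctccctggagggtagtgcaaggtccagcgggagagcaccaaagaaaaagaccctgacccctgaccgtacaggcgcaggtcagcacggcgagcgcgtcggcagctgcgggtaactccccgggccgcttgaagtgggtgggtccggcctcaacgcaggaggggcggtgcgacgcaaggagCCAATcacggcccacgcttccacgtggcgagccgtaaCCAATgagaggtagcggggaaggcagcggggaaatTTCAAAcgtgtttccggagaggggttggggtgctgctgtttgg
Cdk1: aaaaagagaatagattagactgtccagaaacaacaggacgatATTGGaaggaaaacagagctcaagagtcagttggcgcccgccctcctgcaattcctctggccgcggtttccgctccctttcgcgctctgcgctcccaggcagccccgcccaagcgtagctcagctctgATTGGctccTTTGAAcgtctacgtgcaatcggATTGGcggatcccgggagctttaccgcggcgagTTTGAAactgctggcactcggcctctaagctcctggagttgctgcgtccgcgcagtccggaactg
Rfc4 rose by 2.95 log2 units. Cdk1 holds TTTGAA at bases 180 and 236 and the CCAAT box, on the reverse strand, at bases 43, 171 and 203; Ttk holds TTTGAA, on the reverse strand, at base 258 and CCAAT at bases 186 and 223.

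The cytotoxic list was searched for the AP-1 motif TGANTCA, where N is any base. Of its 19 genes with a window, 1 held it (5.26%, against 8.97% of all genes with a window and 7.69% of the measured ones). That gene is Gzmb, whose window (chr14:56262285-56262584, minus strand) is shown for this reason, with the motif at base 193.
Gzmb: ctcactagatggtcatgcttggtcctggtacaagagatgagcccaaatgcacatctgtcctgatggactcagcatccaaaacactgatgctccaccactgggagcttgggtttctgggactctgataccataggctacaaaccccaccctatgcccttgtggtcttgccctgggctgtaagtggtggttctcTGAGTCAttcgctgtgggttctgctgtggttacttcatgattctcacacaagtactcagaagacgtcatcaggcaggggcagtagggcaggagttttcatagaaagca
Among cytokine genes, 10 of 19 with a window held the NFAT core TGGAAA (52.6%, against 23.9% of all genes with a window), and so did 3 of 6 killer cell lectin-like receptor genes. These shares were picked from those of all 24 functional lists. The NFAT core was in 3 of 16 receptor-signal early genes with a window (18.8%) and in 6 of 17 quiescence and homing genes (35.3%). It was in 20.9% of the 9887 measured genes with a window.

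Growth and metabolism lists also had more rises than falls, with smaller medians. Of 23 ribosome biogenesis genes, 17 rose and none fell (73.9%, against 13.6% each way over all genes), with a median of 0.87. With the beta-actin difference held constant, 15 rose. Nop58, a box C/D snoRNP protein, was at 11.59, 11.67 and 11.49 in continuous cells and 10.12, 9.28 and 10.05 in transient cells (3.41-fold, adjusted p = 0.000337), and Fbl, fibrillarin, the methyltransferase of ribosomal RNA, at 11.85, 11.86 and 11.54 against 10.36, 10.39 and 10.34 (2.62-fold, adjusted p = 2.62e-05). The unstimulated mean of Fbl, 11.96, was close to its continuous level.

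In glycolysis 10 of 16 genes rose and 1 fell (62.5% and 6.25%, against 13.6% each way over all genes), with a median of 0.67. The fall was that of the glucose transporter Slc2a1 (difference -0.51, adjusted p = 0.0114), and its relative Slc2a3, at -0.36, was not called. With the beta-actin difference held constant, 7 rose and none fell. Tpi1, triosephosphate isomerase, was at 12.60, 12.16 and 11.41 in continuous cells and 9.53, 9.74 and 9.47 in transient cells (5.57-fold, adjusted p = 7.85e-05). Hk2, the inducible hexokinase, rose 4.95-fold and Pkm, pyruvate kinase, 3.06-fold (adjusted p = 0.00275 and 0.000637). Of 22 genes of amino acid transport and one-carbon metabolism, 11 rose and 1 fell (50.0% and 4.55%, against the same 13.6% each way). With the beta-actin difference held constant, 10 rose and 1 fell. Shmt1, which feeds serine carbon into the folate cycle, was at 10.60, 10.92 and 10.61 in continuous cells and 7.76, 7.96 and 8.08 in transient cells (6.87-fold, adjusted p = 3.32e-05). Slc7a5, the large neutral amino acid transporter, rose 4.70-fold, and Asns, asparagine synthetase, rose 6.86-fold. Bcat1, which transfers amino groups from branched-chain amino acids and was among the 10 largest rises, was at 10.04, 10.08 and 9.31 against 5.70, 5.75 and 6.23 (15.0-fold, adjusted p = 3.4e-06).

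Of 23 genes of sterol synthesis and fatty acid desaturation, 10 rose and none fell (43.5%, against 13.6% each way over all genes), with a median of 0.43. The rises were led by Idi1 (2.43-fold) and Cyp51 (2.41-fold), both enzymes of cholesterol synthesis. The unfolded protein response list had 11 rises and 1 fall among 20 (55.0% and 5.0%, against 13.6% each way) and a median of 0.89. The fall was that of Ddit3 (difference -1.33, adjusted p = 0.000382). Sdf2l1, a chaperone of the endoplasmic reticulum, was at 10.05, 9.40 and 8.29 in continuous cells and 7.49, 7.02 and 6.99 in transient cells (4.23-fold, adjusted p = 0.00101), and the disulfide isomerase Pdia6 rose 2.96-fold. Respiratory chain subunits rose in 8 of 26 cases and fell in 1 (30.8% and 3.85%, against 13.6% each way), with a median of 0.24. Atp5b, a subunit of ATP synthase, had the largest rise of them, 2.23-fold (adjusted p = 0.000318). With the beta-actin difference held constant, 8 genes of the sterol list, 8 of the unfolded protein response and 5 of the respiratory chain rose.

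**Figure D3:**
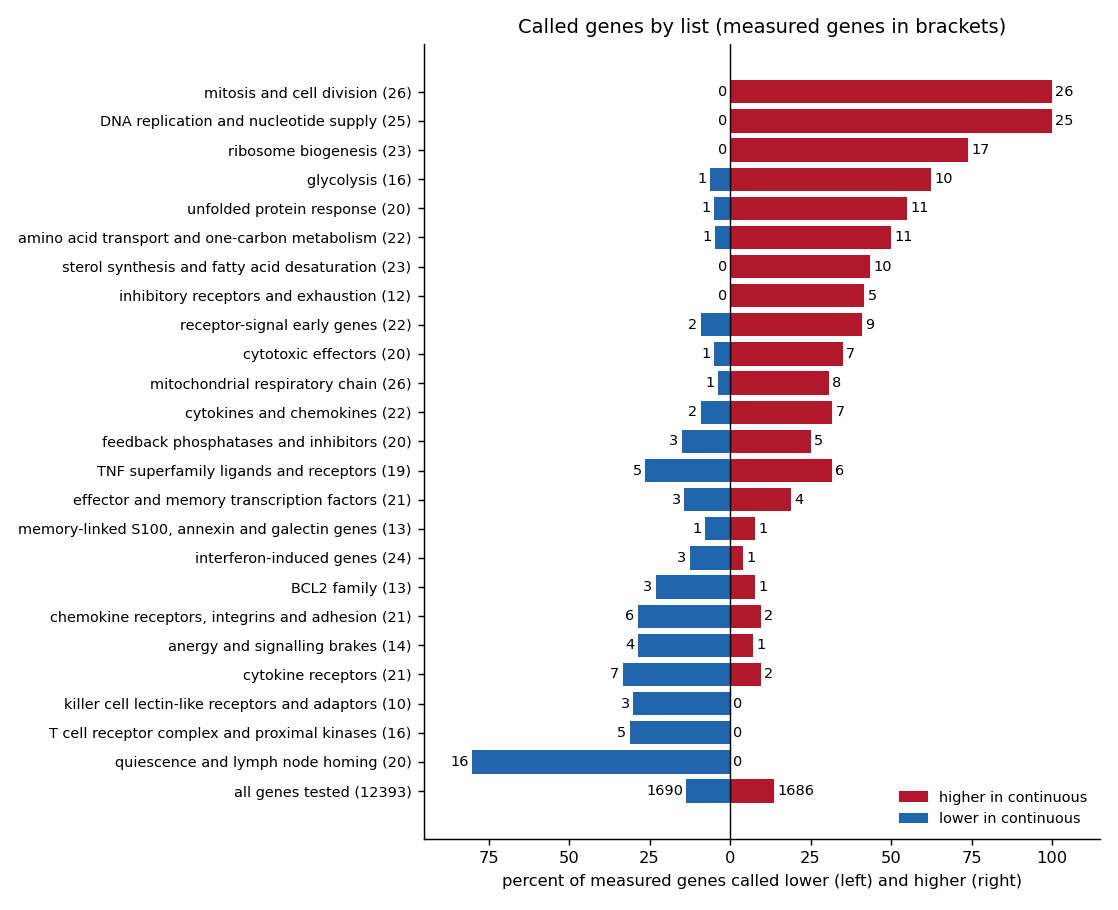
Percent of the measured genes of each list (count in brackets) called higher, to the right, and lower, to the left, in continuous cells, with the number of called genes at the bar ends. Mitosis and DNA replication lie at 100% higher, quiescence and lymph node homing at 80.0% lower, and all genes tested at 13.6% each way.

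**Figure D4:**
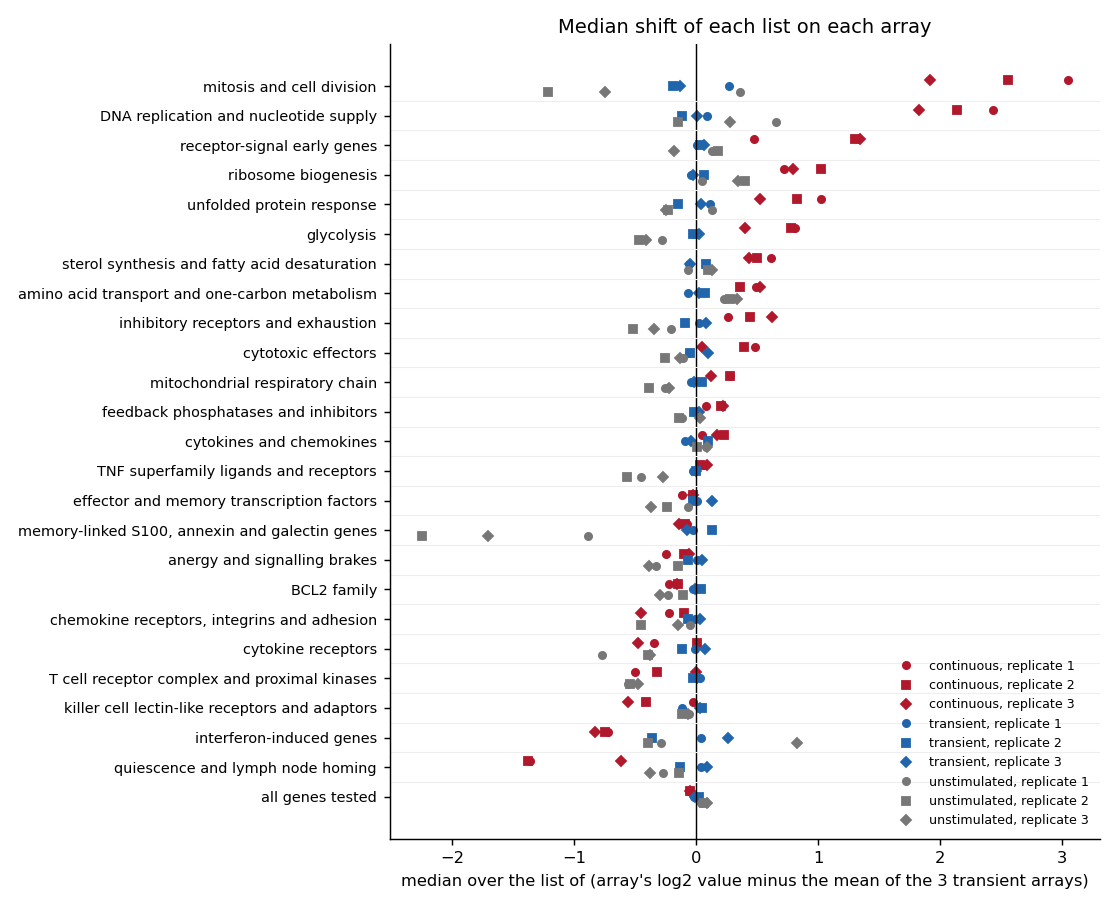
For each list, the median over its genes of the array's log2 value minus the mean of the 3 transient arrays (horizontal axis), for each continuous, transient and unstimulated CD8 array. Continuous replicate 3 lies nearest to the transient arrays for mitosis (1.92), replication (1.83) and quiescence (-0.62), but has the highest median for receptor-signal early genes (1.34) and inhibitory receptors (0.62).

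Interferon-induced genes had few calls: 1 of 24 rose and 3 fell (4.17% and 12.5%, against 13.6% each way over all genes). Without continuous array 3, 2 rose and 4 fell, and with the beta-actin difference held constant none rose and 5 fell. Of the 24 differences 21 were negative, against 7162 of 12393 over all genes. The median was -0.80, against -0.05 over all genes. Ifit3, which takes part in the antiviral response, was at 7.45, 7.74 and 7.73 in continuous cells and 10.02, 9.41 and 10.60 in transient cells (difference -2.37 ± 0.65, adjusted p = 0.0147), and its call was lost without transient array 3 or continuous array 1 (adjusted p up to 0.062). Irf9, a subunit of the factor that interferon activates, was at 8.64, 9.00 and 8.91 against 10.08, 9.85 and 10.29 (adjusted p = 0.000833). The list's median ranged more between transient arrays, from -0.36 to 0.26, than between continuous arrays, from -0.83 to -0.72.

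Of 13 BCL2 family genes, 1 rose and 3 fell (7.69% and 23.1%, against 13.6% each way over all genes), with 2 and 3 without continuous array 3 and 1 and 2 with the beta-actin difference held constant. Mcl1, a survival protein, was at 11.34, 11.78 and 11.81 in continuous cells and 12.50, 12.55 and 12.83 in transient cells (difference -0.98 ± 0.13, adjusted p = 0.000157), and Bbc3, which encodes the death inducer Puma, fell by 1.09 ± 0.25 (adjusted p = 0.0048). Bid, another death inducer, rose 1.87-fold. Bcl2l11, which encodes Bim, was at 11.32, 11.90 and 12.02 against 11.76, 11.03 and 11.80 and was not called (interval -0.34 to 0.77). Pmaip1, which encodes Noxa, was separate between the groups but missed the threshold (difference 1.21, adjusted p = 0.0556).

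Genes of the T cell receptor complex and the kinases and adaptors next to it had no rise and 5 falls among 16 (31.2%, against 13.6% over all genes), with a median of -0.34, and 3 falls with the beta-actin difference held constant. The falls were those of 3 receptor chains, among them Cd3d and Cd3g, of the surface receptor Cd6 and of the signalling protein Vav1, and the call of Cd6 was lost without any of 4 of the 6 arrays (adjusted p up to 0.109). The chain Cd3e, named after its values were seen, averaged 10.17 in both groups. Cd3d, a CD3 chain, was at 11.98, 12.01 and 12.93 in continuous cells and 13.26, 13.48 and 13.40 in transient cells (2.11-fold lower, adjusted p = 0.00349), and Cd3g fell 1.57-fold (adjusted p = 0.000582). The coreceptor chain Cd8b1 was at 11.92, 11.92 and 12.03 against 12.64, 12.79 and 12.77 and fell 1.71-fold (adjusted p = 0.000392), while Cd8a, at 12.54, 12.76 and 12.58 against 12.83, 12.94 and 12.99, was not called (interval -0.61 to 0.03). Killer cell lectin-like receptors and their adaptors had no rise and 3 falls among 10, against 13.6% each way over all genes. The falls were 2 with the beta-actin difference held constant. On so few genes these counts are not read as a result for the list. The largest fall was that of Hcst, the adaptor DAP10 of the receptor NKG2D (4.35-fold lower, adjusted p = 0.00012). Hcst was at 8.15, 8.70 and 9.63 in continuous cells and 10.68, 11.26 and 10.89 in transient cells. Of 13 memory-linked S100, annexin and galectin genes, 1 rose and 1 fell (7.69% each, against 13.6% each way over all genes). Of these genes, 4 rose and 1 fell without continuous array 3, and none rose and 1 fell with the beta-actin difference held constant. Relative to the transient mean, this list's median was between -0.14 and 0.13 on the continuous and transient arrays and between -2.25 and -0.89 on the unstimulated arrays.

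The largest rises also held genes that the replication and mitosis lists do not name, some of them tied to DNA replication and repair. Lrr1, a leucine-rich repeat protein, was at 10.74, 10.35 and 9.6 in continuous cells and 6.50, 5.53 and 5.83 in transient cells (19.3-fold). Marcksl1, a relative of the actin-binding MARCKS protein, rose 18.8-fold, Chek1, a kinase of the DNA damage checkpoint, 15.4-fold, and Fignl1, an ATPase of recombination repair, 13.9-fold (adjusted p of all 4 genes between 2.51e-05 and 0.000167). Several of the largest falls are less known from T cells. Rflnb, a filamin-binding protein, had the largest fall: 7.37, 7.00 and 9.28 in continuous cells against 11.95, 11.28 and 11.83 in transient cells (14.0-fold lower, adjusted p = 4.82e-05). St6gal1, the enzyme that adds sialic acid to cell surface glycans, was at 8.14, 9.11 and 12.34 in continuous cells and 13.16, 12.93 and 13.23 in transient cells. Its continuous array 3 was within 1 unit of the transient arrays while arrays 1 and 2 were over 3 units below, and the difference of -3.24 ± 0.70 (adjusted p = 0.00351) was -4.48 without array 3. Igfbp4, a binding protein of insulin-like growth factors, fell 9.43-fold, Tdrp 11.0-fold, Actn2, an alpha-actinin, 6.67-fold, and Dbp, a factor of the circadian output, 6.10-fold (adjusted p = 0.000325, 0.00023, 0.000108 and 8.79e-05). For Tdrp, Actn2 and Dbp, as for Il7r, continuous array 3 was the one nearest to the transient arrays.

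The same contrast in CD4 cells was used to ask where CD8 cells differ. With 3 continuous and 2 transient CD4 arrays, 4224 genes were called (34.1%), and the CD8 minus CD4 difference of the contrast was called for 2340 genes, 1008 higher (8.13%) and 1332 lower (10.7%) in CD8 cells. CD4 and CD8 cells differ in lineage, receptor and antigen at once, which cannot be told apart. The CD4 transient arrays also had beta-actin 3′ minus 5′ differences of 2.42 to 2.73, against 0.66 to 1.02 in CD8 transient cells, and B cell marker sums of 13.10 and 14.47. With the beta-actin difference held constant, 4 genes remained called for the CD8 minus CD4 difference, so the following values depend on that setting.

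Of 25 replication genes, 3 were called higher and 2 lower in this difference, which is about the share of all genes (8.13% and 10.7%). Of 26 mitosis genes, none was higher and 1 lower. In quiescence and homing genes 5 of 20 were lower and none higher. S1pr1 fell by 1.42 in CD8 cells while its CD4 difference was 1.5 (CD8 minus CD4 -2.92, adjusted p = 0.000135), and Klf2 had -0.65 in CD8 and 1.58 in CD4 cells (-2.23, adjusted p = 0.000159). Xcl1 had a difference of 3.58 in CD8 cells and -0.20 in CD4 cells (CD8 minus CD4 3.78, adjusted p = 0.000527), and Fasl 3.64 and -0.40 (4.05, adjusted p = 0.00249). Il2ra rose in CD8 cells by 2.20 and had -1.03 in CD4 cells (3.23, adjusted p = 0.00209). In the other direction, Ccl5 had -1.19 in CD8 and 2.22 in CD4 cells (-3.41, adjusted p = 0.00136), and Tbx21 had 0.21 and 2.90 (-2.68, adjusted p = 0.00354). For Gzmb, with 4.13 in CD8 and 5.71 in CD4 cells, and Ifng, with 4.52 and 4.25, the difference of the contrasts was not called (adjusted p = 0.348 and 0.895).

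**Figure D5:**
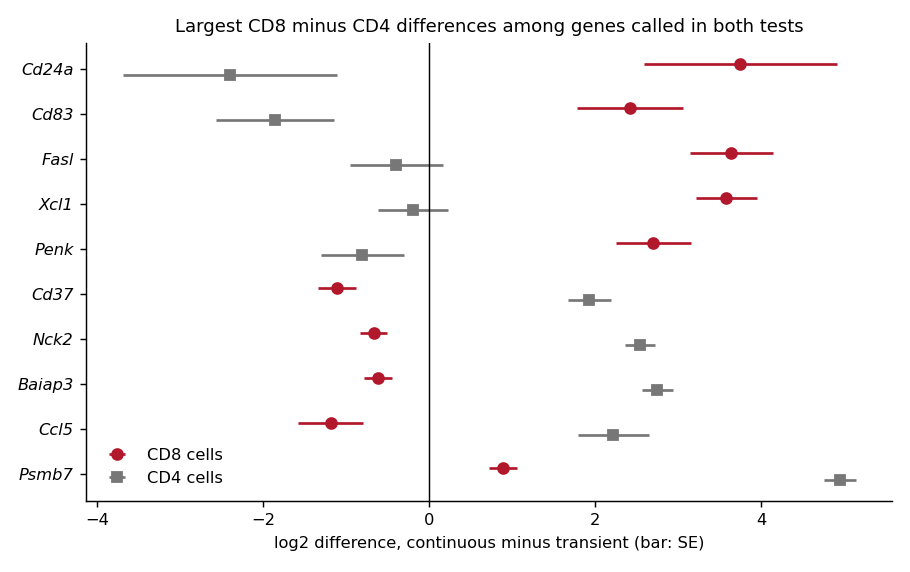
Log2 difference, continuous minus transient, with its SE (horizontal axis) in CD8 cells and in CD4 cells, for the 5 genes with the largest positive and the 5 with the largest negative CD8 minus CD4 difference among genes called in that test and in CD8 cells. Cd24a has 3.75 in CD8 and -2.40 in CD4 cells, and Psmb7 0.89 in CD8 and 4.95 in CD4 cells.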

How the data were processed

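Total RNA was amplified, labelled with biotin and hybridized to Affymetrix Mouse 430A2 arrays, per the labels. The authors deposited log2 values computed with RMA, per the submitters' processing notes (version not given in the sources used here). Of 22690 probe sets, 20380 had 1 gene symbol in the platform annotation; left out were 64 controls, 691 that name several genes and 1555 that name no gene. Each of the 12393 genes was represented by its probe set of highest mean over the 28 arrays. limma 3.58.1 in R 4.3.3 fitted a mean per group to the 16 day 5 arrays with no low-value filter, tested on simulated data first. Each value's precision is limited by 3 arrays a group, and its SE uses the spread within the groups of all 16 arrays. The main fit has no replicate block. The 24 functional and 11 marker lists, the panel and the naming rule (10 largest rises and falls, up to 4 called genes a list, a fixed panel, 5 largest CD8 minus CD4 differences each way) were chosen with earlier results of these data known. Alternatives covered probe set choice, normalization, filter, moderation, samples fitted, the block, each array left out, and 2 covariates chosen after the data were seen. Promoters are RefSeq windows (GRCm38.p6).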

Additional observations from a re-analysis of the deposited data

Results flagged for a closer look

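The test of the CD8 minus CD4 difference of continuous against transient stimulation called 2340 genes. The genes with the largest positive values among those also called in CD8 cells were Cd24a (6.16), Cd83 (4.27), Fasl (4.05), Xcl1 (3.78) and Penk (3.51), and the largest negative ones were Psmb7 (-4.06), Ccl5 (-3.41), Baiap3 (-3.37), Nck2 (-3.21) and Cd37 (-3.05). Cd24a, a surface glycoprotein, was at 9.27, 9.87 and 9.25 in continuous and 7.49, 4.17 and 5.46 in transient CD8 cells, and its CD8 call was lost without any of 4 of the 6 arrays (adjusted p up to 0.114). Psmb7, a proteasome subunit, was high in both CD8 groups, at 12.54, 12.20 and 11.95 against 11.38, 11.40 and 11.24, while its CD4 difference was 4.95. The CD4 transient group had 2 arrays with raised B cell marker sums of 13.10 and 14.47, and Cd24a, Cd83 and Cd37 are also expressed by B cells; the part of those cells was not tested. Single arrays of the CD8 groups were not tested for standing apart, since these groups have 3 arrays each.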

How the results depend on the processing

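The count of 3376 genes called in CD8 cells became 5401 over all probe sets, 5135 with array weights, 360 with all 28 arrays in one fit (246 higher and 114 lower, 68.3% higher against 49.9%), 2248 with the beta-actin difference as a covariate, 2150 at adjusted p under 0.01 and 1088 with at least 1 log2 unit; leaving out each CD8 array gave 2391 to 3631. The CD8 minus CD4 count of 2340 became 3585, 1274 with the replicate block, 22 with all 28 arrays, 4 with the beta-actin covariate, 1167 at adjusted p under 0.01 and 1331 with at least 1 log2 unit, and 1574 to 2323 without 1 array. The CD4 count of 4224 became 6810 over all probe sets, 1981 with the block, 618 with all 28 arrays, 2 with the beta-actin covariate and 1855 with at least 1 log2 unit, and 3204 to 3867 without 1 array. The larger count over all probe sets comes from more features; the other causes were not tested. In CD8 cells the block called 1560 genes higher and 1549 lower, and all main calls kept under any of these settings had the same direction, apart from 1 gene with the mean of probe sets. Genes not called changed sign as follows: leaving out single arrays gave -0.04 (transient 2) to 0.43 for Bcl2l11, -0.49 to 0.24 (continuous 1) for Ctla4, -0.82 to 0.80 for Klrg1 (0.80 without transient 3 and 0.32 without continuous 3) and -0.19 (continuous 2) to 0.74 for Tbx21. With the beta-actin covariate Ctla4 was 0.05, Gzma -0.65 and Tbx21 -0.21. Klrg1 was 0.09 with array weights and Nr4a3 0.02 with the mean of probe sets. Deviations from the group means of same-numbered continuous and transient arrays correlated at 0.17, 0.22 and 0.02 over all genes. Each array correlated best with its own number, a hint from the data only, and the numbers were not taken to pair the samples, so a call lost under the block is no sign of a smaller effect.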
